A study of Homo sapiens with 6 samples.

Results

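The genes described here are long noncoding RNA genes whose names end in -AS1, the suffix given to the first RNA annotated antisense to a coding gene, and which were counted in total RNA of the T-cell acute lymphoblastic leukaemia line ALL-SIL. A gene was included when its GENCODE release 29 name ended in -AS1, its biotype was of a long noncoding type, and at least 10 reads fell on its own strand in at least 3 of the 6 libraries. Of 58096 genes in the files, 1073 carried such a name and biotype, and 256 of these reached the minimum. The members were thus chosen by their read counts, over both groups, and 550 of the other 817 had 0 reads in every library. By biotype 186 members were annotated as antisense, 38 as processed transcripts, 27 as lincRNA, 4 as bidirectional promoter lncRNA and 1 as sense overlapping. The study compared 3 libraries titled JQ1 with 3 titled DMSO. JQ1 blocks the acetyl-lysine pocket of BET bromodomain proteins and so releases them from chromatin, and DMSO is its solvent. The treatment text gives 1 µM JQ1 for 24 h and stands in the same words on the controls, so the groups were taken from the titles. No genotype or other agent is named, both groups are the same line, and nothing states that replicates came from separate cultures, so the p-values measure only the spread between these samples, which may be technical.

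Antisense RNA is transcribed from the strand opposite to another gene. Where it starts close to the start of the coding gene and runs the other way, both share a promoter region, an arrangement called head-to-head. Where it starts elsewhere and crosses the exons of the coding gene, the RNAs are complementary over the overlap, and telling them apart needs a library that keeps strand. Many such RNAs are short-lived and are removed in the nucleus by the RNA exosome and its cofactors. BET proteins act at promoters and enhancers, where they help RNA polymerase II pass into elongation.

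Gene counts per library ran from 15925885 to 25293884. Levels below are in CPM, the reads of a gene scaled to a common library total adjusted with TMM factors. MYC, a gene known to fall under BET inhibitors in many blood cancer lines, went from 358.5 ± 12.1 CPM in DMSO to 135.3 ± 14.8 in JQ1 (SD, n = 3; log2 change -1.41), and HEXIM1, a gene often used to follow such inhibitors, went from 29.8 ± 7.17 to 89.3 ± 19.2 (log2 change 1.59). All 9 T-lineage markers examined reached 1 CPM in at least 1 library, with sums of 1641 to 1850 CPM in DMSO and 1042 to 1322 CPM in JQ1. They did not move alike. CD2, which reached 1 CPM only in DMSO, CD5 and LCK had log2 changes of -4.33, -2.5 and -1.86. CD3D, CD3E, CD3G, CD7 and CD247 ran from -0.88 to -0.19, and TLX1, also in this sum, rose by 0.45. Sums of 5 B-lineage markers were 11.5 to 24.5 CPM in DMSO and 1.61 to 6.35 CPM in JQ1, with MS4A1 at 0 in every library. Myeloid, erythroid and fibroblast markers summed to at most 0.471 CPM in any library. The part of these marker changes in the AS1 results was not tested.

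JQ1 libraries held more of some AS1 RNAs and less of others, with the larger number of calls on the higher side. Of 254 members that could be tested, 52 rose and 35 fell at an adjusted p under 0.05 in edgeR's quasi-likelihood test. The same test called 15.9% of all 13975 genes higher and 20.6% lower, beside 20.47% and 13.78% of the AS1 genes. The median log2 change was 0.18 over the AS1 genes and 0.00 over all genes tested, and 156 of the 254 values lay above 0. Over all 1819 long noncoding RNA genes tested under the same read minimum the median was 0.12, with 1072 values above 0. A shift to the higher side was thus not particular to AS1 genes. Of the called members 21 rose and 22 fell by more than 2-fold, as did 389 and 1063 of all 13975 genes tested. Among the called members the median change was 1.86-fold for those that rose and 2.26-fold for those that fell. In 119 of 254 members the 3 JQ1 values and the 3 DMSO values did not overlap, beside 48.9% of all genes. With the replicate number as a block, 85 members rose and 52 fell, beside 27.3% and 29.6% of all genes. Members that reached 10 reads in 3 libraries of 1 group only are named below. Some others rested largely on 1 group, so these counts describe the counted members and not every AS1 gene.

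**Figure D1:**
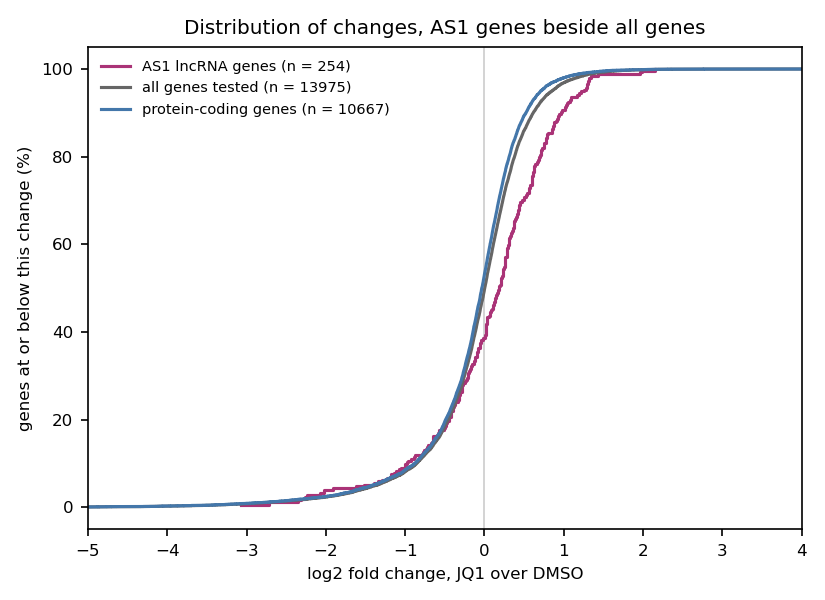
Cumulative share of genes (y axis, percent) at or below each log2 fold change of JQ1 over DMSO (x axis) for 254 AS1 genes, 10667 protein-coding genes and all 13975 genes tested. The AS1 curve lies to the right of the others near its middle, with medians of 0.18, -0.03 and 0.00.

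Most AS1 RNAs were scarce. Their median level was 2.76 CPM, with a range of 0.368 to 614.9 CPM, while the median of tested coding genes was 36.6 CPM. Per kilobase of exon the medians were 1.12 CPM for AS1 genes and 7.19 CPM for coding genes. In 179 of 211 pairs with both genes tested, the AS1 gene had fewer CPM per kilobase than the coding gene in its name. Fewer reads give a wider error, so a low member needed a larger change to be called. Among the 139 members with a mean of at least 50 reads, 39 rose and 20 fell. These are 28.1% and 14.4%, beside 15.9% and 20.6% of all genes tested at any level.

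Of the 5 most abundant members 1 rose and 4 were not called. LRRC75A-AS1 (chr17:16438822-16478678, plus strand), whose current symbol SNHG29 marks it as a small nucleolar RNA host gene, stood at 635, 622 and 469 CPM in DMSO replicates 1, 2 and 3 and at 699, 679 and 584 CPM in JQ1. Its groups overlap, and the log2 change of 0.19 ± 0.14 (SE) did not pass the test (edgeR adjusted p = 0.32). OIP5-AS1 (chr15:41283990-41309737, plus strand), a conserved cytoplasmic RNA known in other species as cyrano, was at 490, 524 and 467 CPM in DMSO and at 494, 497 and 494 CPM in JQ1. That is a log2 change of 0.00 ± 0.10 with an edgeR adjusted p of 0.98. FGD5-AS1 was at 266, 210 and 191 CPM in DMSO and 252, 218 and 228 in JQ1, again with overlapping groups (log2 change 0.07, edgeR adjusted p = 0.72). Its coding gene FGD5, a guanine nucleotide exchange factor, had JQ1 reads of 0, 1 and 5 and fell by 4.28 ± 0.76 on the log2 scale (edgeR adjusted p = 0.0022), a call lost with unstranded counts. TRG-AS1, which lies in the T-cell receptor gamma locus and has no single coding gene to set beside it, was at 128, 164 and 172 CPM in DMSO and 153, 190 and 178 CPM in JQ1. The log2 change of 0.17 was not called (edgeR adjusted p = 0.33). With the replicate block both TRG-AS1 and LRRC75A-AS1 were called higher, each at an adjusted p of 0.017. THUMPD3-AS1 (chr3:9349689-9398579, minus strand) rose, and was the only member of the 5 to do so. It stood at 68.7, 74.3 and 62.6 CPM in DMSO and at 116, 112 and 103 CPM in JQ1, a change of 0.69 ± 0.09 on the log2 scale (edgeR adjusted p = 0.00035). THUMPD3, the coding gene in its name, had a log2 change of -0.23 that passed only with the replicate block (edgeR adjusted p = 0.076 without it and 0.0027 with it), and the AS1 gene also lies over the coding gene SRGAP3 on its own strand. RNF144A-AS1, among the 5 highest per kilobase, was at 79.6, 81.1 and 69.2 CPM in DMSO and at 76.9, 71.9 and 71.3 in JQ1, while RNF144A, a ubiquitin ligase gene, fell by 0.63 ± 0.11 on the log2 scale (edgeR adjusted p = 0.0013).

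The 10 largest falls, by the rule that names members, had log2 changes of -1.91 to -3.07. PCED1B-AS1 (chr12:47205898-47216456, minus strand) had 2.91, 4.67 and 3.15 CPM in DMSO and 0.485, 0.329 and 0.451 CPM in JQ1, so every JQ1 library lay below every DMSO library. The log2 change was -3.07 ± 0.32 (edgeR adjusted p = 7.6e-05), and PCED1B itself had too few reads to be tested. PCED1B-AS1 reached 10 reads in 3 DMSO libraries and in only 1 JQ1 library, so its inclusion rested largely on the DMSO group. ITGB2-AS1 (chr21:44921051-44929678, plus strand) overlaps the gene of the beta-2 integrin chain of leukocytes. Its levels were 6.16, 5.74 and 8.98 CPM in DMSO against 1.41, 1.46 and 1.48 CPM in JQ1, a change of -2.26 ± 0.24 on the log2 scale (edgeR adjusted p = 7.9e-05). ITGB2 moved the same way, from 122, 123 and 146 CPM to 62.0, 74.5 and 69.4 CPM (log2 change -0.92 ± 0.10, edgeR adjusted p = 0.00012). The AS1 RNA fell further than its coding gene in these libraries: the log2 ratio of the pair differed by -1.29 between groups and its values did not overlap. With libraries taken as unpaired, a 2-sided exact permutation test gave p = 0.1, the smallest that 3 against 3 allows. With same-numbered libraries paired, a 2-sided exact permutation test by sign flips gave p = 0.25, the smallest that 3 pairs allow.

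PRKAG2-AS1 (chr7:151877042-151879223, plus strand) lies head-to-head with the gene of a regulatory subunit of AMP-activated protein kinase. It was at 1.23, 1.26 and 1.10 CPM in DMSO and at 0.283, 0.0939 and 0.129 CPM in JQ1 (log2 change -2.72 ± 0.41, edgeR adjusted p = 0.00069). PRKAG2 went from 5.42, 4.52 and 4.58 CPM to 2.22, 2.21 and 0.838 CPM (log2 change -1.41 ± 0.30, edgeR adjusted p = 0.0042). FOXP4-AS1, which overlaps the start region of a forkhead transcription factor gene without sharing exon sequence, went from 1.53, 1.10 and 2.31 CPM to 0.242, 0.141 and 0.387 CPM, a log2 change of -2.72, and FOXP4 had a log2 change of 0.27 that was called only with the replicate block (edgeR adjusted p = 0.15 without it and 0.0056 with it). Both RNAs reached 10 reads in 3 libraries of the DMSO group only, so a fall was built into their inclusion. DBH-AS1, beside the gene of dopamine beta-hydroxylase, went from 14.5, 8.37 and 10.3 CPM to 2.79, 2.82 and 2.51 CPM (log2 change -2.02 ± 0.22, edgeR adjusted p = 0.00011). MELTF-AS1, UMODL1-AS1 and UBXN10-AS1 had log2 changes of -2.02, -2.31 and -1.91, and in each the coding gene also fell. WDR86-AS1 changed by -2.08 ± 0.57 on the log2 scale (edgeR adjusted p = 0.017), lost without DMSO replicate 3 or JQ1 replicate 1. The call of UBXN10-AS1 was lost without DMSO replicate 3. UMODL1-AS1, WDR86-AS1 and UBXN10-AS1 reached 10 reads in 3 DMSO libraries and in only 1 JQ1 library. Their inclusion thus rested largely on the DMSO group.

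TSPOAP1-AS1 (chr17:58325450-58415766, plus strand) fell while the gene in its name rose. TSPOAP1 encodes a protein that binds the mitochondrial translocator protein, and the genes overlap over 252 exonic bases. The AS1 RNA stood at 23.9, 28.4 and 31.0 CPM in DMSO and at 4.45, 6.67 and 6.64 CPM in JQ1, with no overlap (log2 change -2.24 ± 0.18, edgeR adjusted p = 1.8e-05). TSPOAP1 was at 17.3, 15.9 and 24.9 CPM in DMSO and at 34.9, 32.1 and 50.7 CPM in JQ1 (log2 change 1.01 ± 0.21, edgeR adjusted p = 0.0063). The log2 ratio of the AS1 RNA to TSPOAP1 differed by -3.26 between groups (2-sided exact permutation test of unpaired libraries, p = 0.1, the smallest possible). With same-numbered libraries paired, a 2-sided exact permutation test by sign flips gave p = 0.25, again the smallest possible. TSPOAP1-AS1 had 2381 reads on its own strand, 3784 on the other and 2040 in the unstranded counts. Those omit reads over exons shared between strands, and gave -0.72 on the log2 scale (edgeR adjusted p = 0.0098). The exons of TSPOAP1-AS1 also overlap those of RNF43, SUPT4H1 and AC004687.2 on the other strand, each at least as much as those of TSPOAP1. The opposite-strand reads therefore cannot be assigned to TSPOAP1 alone.

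The largest rises were smaller than the largest falls. SPAG5-AS1 reached the read minimum through the JQ1 libraries alone, so its direction was fixed by its inclusion. It went from 0.197, 0.314 and 0.227 CPM to 1.54, 0.939 and 0.838 CPM, a change of 2.15 ± 0.40 on the log2 scale (edgeR adjusted p = 0.0021). This RNA lies opposite SPAG5, the gene of the spindle protein astrin, and had 89 reads on its own strand beside 6100 on the other. At the share of opposite-strand reads measured in isolated coding genes, 16.2% of its own-strand reads would come from SPAG5, and unstranded counts gave 0.33 with no call (edgeR adjusted p = 0.33). RAP2C-AS1, beside the gene of a small GTPase, was at 0.591, 0.589 and 0.606 CPM in DMSO and at 1.5, 3.05 and 2.64 CPM in JQ1 (log2 change 1.98 ± 0.33, edgeR adjusted p = 0.0012), while RAP2C had a log2 change of -0.26 (adjusted p = 0.082, or 0.011 with the replicate block). INTS6-AS1 (chr13:51452367-51552364, plus strand), head-to-head with an Integrator complex gene, was at 2.56, 4.20 and 3.71 CPM in DMSO and at 7.92, 10.1 and 7.93 CPM in JQ1. Its log2 change was 1.30 ± 0.21 (edgeR adjusted p = 0.00094), and that of INTS6 was 0.06 with an adjusted p of 0.66. RTCA-AS1 and PAXBP1-AS1 rose by 1.30 and 1.43 on the log2 scale. RTCA, which encodes an RNA cyclase, was not called, and PAXBP1, which encodes a PAX-binding protein, rose by 0.61. C21orf62-AS1 rose by 1.32 ± 0.23 while C21orf62 had no read in any library. The rises of RORA-AS1 and MCPH1-AS1 are given with their coding genes below.

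**Figure D2:**
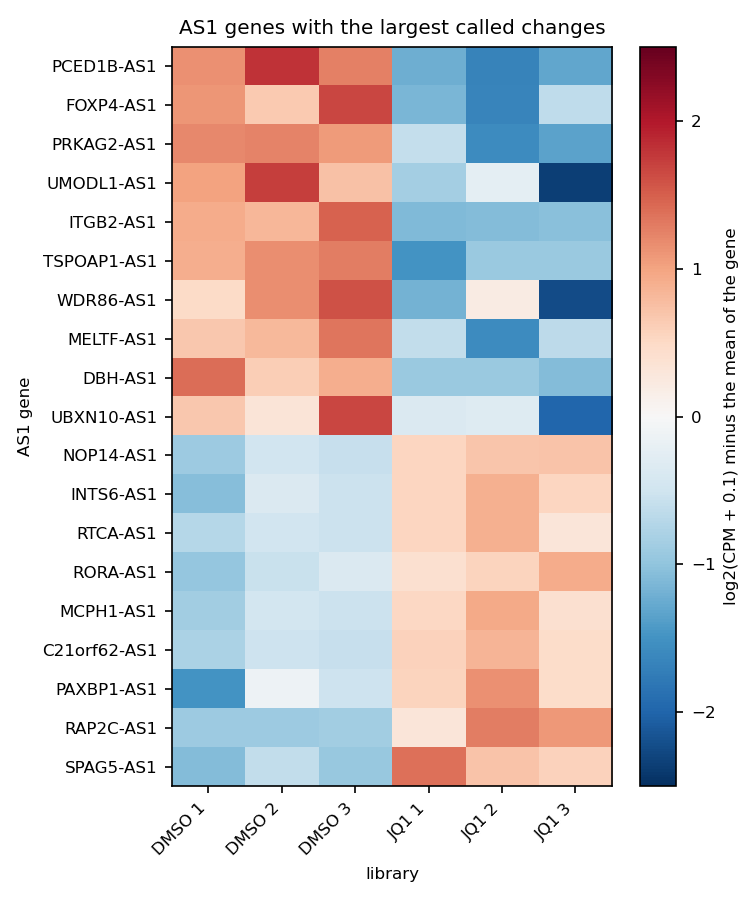
Of the 10 members with the largest called rises 9, and the 10 with the largest called falls (rows), reaching 1 CPM in their higher group, in the 6 libraries (columns). Colour is log2(CPM + 0.1) minus the gene's mean over the 6 libraries. Rows run from PCED1B-AS1 with a log2 change of -3.07 to SPAG5-AS1 with 2.15. No JQ1 value overlaps the DMSO values of its row, which held for all 87 called members and for 48.9% of all genes. The direction of FOXP4-AS1, PRKAG2-AS1 and SPAG5-AS1 was fixed by their inclusion.

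A list of 14 AS1 RNAs with roles reported in other work was also followed, and 12 were members. GATA3-AS1 had 6 to 10 reads in each library and CDKN2B-AS1 had 0, so neither was counted. Of the 12, TMPO-AS1 rose, ITGB2-AS1 and PRKCQ-AS1 fell, and 9 were not called without the replicate block. TMPO-AS1 (chr12:98512973-98516422, minus strand), opposite the gene of the nuclear lamina protein thymopoietin, was at 29, 25.6 and 29.5 CPM in DMSO and at 42.0, 48.2 and 54.3 CPM in JQ1 (log2 change 0.78 ± 0.11, edgeR adjusted p = 0.00059). TMPO had a log2 change of -0.31 with an adjusted p of 0.055, or 0.00048 with the replicate block. PRKCQ-AS1 (chr10:6580419-6616452, plus strand), beside the gene of protein kinase C theta in T-cell receptor signalling, was at 19.5, 21.0 and 20.1 CPM in DMSO and at 7.56, 13.3 and 9.41 CPM in JQ1. Its log2 change was -1.0 ± 0.18 (edgeR adjusted p = 0.002), and PRKCQ, with a log2 change of -0.44, was called only with the block (adjusted p = 0.24 without it and 0.048 with it). LEF1-AS1, SATB1-AS1 and ZEB1-AS1, named after transcription factor genes of T cells and other lineages, had log2 changes of -0.42, 0.11 and 0.26 with adjusted p of 0.17, 0.60 and 0.29. With the block LEF1-AS1 was called lower (edgeR adjusted p = 0.012) and ZEB1-AS1 higher (adjusted p = 0.031). The remaining uncalled members of the list, besides OIP5-AS1 and FGD5-AS1, were MCM3AP-AS1 (-0.49), MAPKAPK5-AS1 (-0.14), CD27-AS1 (0.01) and GABPB1-AS1 (0.14), of which MCM3AP-AS1 was called lower with the block (edgeR adjusted p = 0.0027).

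A coding gene could be matched by name to 252 members, 1 of them through an older symbol. By annotation 127 members lay head-to-head with it, meaning opposite strands with starts within 2 kb, 103 overlapped its exons without that, 20 overlapped its body but none of its exons and 2 lay apart. The last 4 had no matching coding gene. Of the 127 head-to-head members 95 started within the body of the coding gene and 32 upstream of its start. Of 126 tested head-to-head members 21 rose and 14 fell (16.7% and 11.1%). Of 103 with exon overlap 25 rose and 16 fell (24.3% and 15.5%). Of 19 that overlapped the body alone 6 rose and 5 fell (31.6% and 26.3%). The shares over all genes were 15.9% and 20.6%. The coding genes moved in both directions as well: of 212 tested, 42 rose and 49 fell, with a median log2 change of 0.00, beside 15.9% and 20.6% of all genes. With the replicate block 71 rose and 71 fell, beside 27.3% and 29.6% of all genes.

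Of the 73 called AS1 genes with a tested coding gene, 37 stood beside an uncalled coding gene and 36 beside a called one. Among 211 pairs with both genes tested, 10 rose together and 11 fell together. In 9 pairs the AS1 gene rose and the coding gene fell, and in 6 the reverse held. In 24 and 13 pairs only the AS1 gene rose or fell, and in 27 and 28 only the coding gene rose or fell, which leaves 83 with no call. A gene without a call is not shown to be unchanged. Across genes the log2 changes of the pairs had a Pearson r of 0.20 and a Spearman rho of 0.09 (n = 211 pairs). Head-to-head pairs had an r of 0.41 and a rho of 0.21 (n = 124), pairs with exon overlap 0.20 and 0.04 (n = 74) and pairs that overlapped outside exons -0.43 and -0.21 (n = 11). These values describe the pairs only: all pairs share the same 6 libraries, and genes are not independent replicates.

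**Figure D3:**
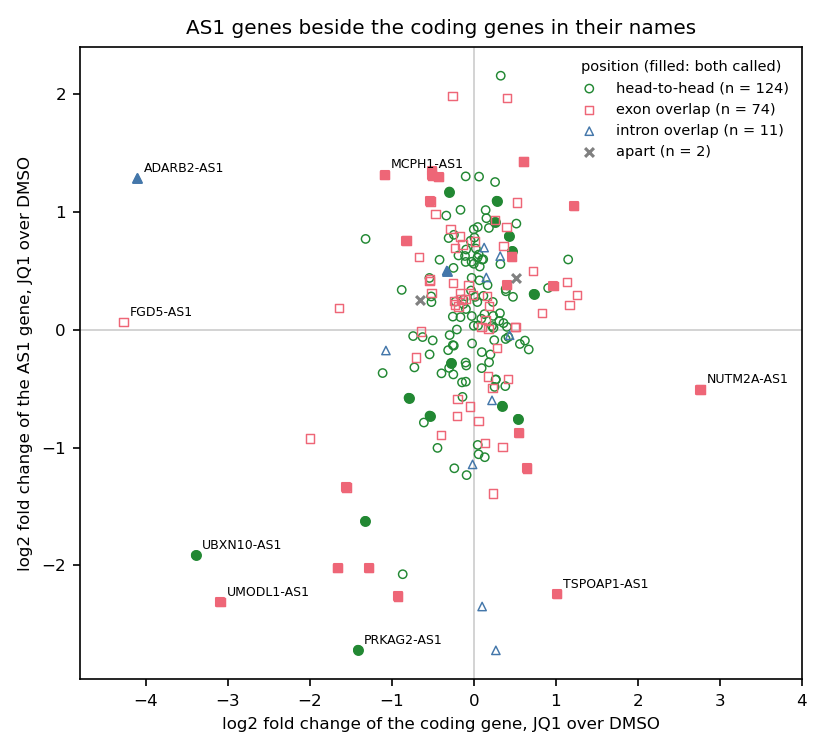
Log2 fold change of each AS1 gene (y axis) against that of the coding gene in its name (x axis), JQ1 over DMSO, for 211 pairs, by position of the AS1 gene, with filled symbols where both were called and intron overlap meaning overlap of the gene body without exons. The 36 filled symbols stand in all 4 quadrants, 21 with the same direction and 15 with opposite directions.

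The 15 pairs called in opposite directions were picked out after their values were seen. RORA-AS1, MCPH1-AS1 and NOP14-AS1 are among the 10 largest rises. NOP14-AS1 (chr4:2934899-2961738, plus strand) overlaps the gene of a nucleolar protein needed to make the small ribosomal subunit over 605 exonic bases. It was at 8.18, 11.0 and 10.2 CPM in DMSO and at 22.4, 25.0 and 25.3 CPM in JQ1 (log2 change 1.30 ± 0.14, edgeR adjusted p = 8.5e-05). NOP14 went from 146, 112 and 126 CPM to 106, 77.6 and 101 CPM. Every JQ1 value of NOP14 was below every DMSO value, but its log2 change of -0.43 ± 0.13 (edgeR adjusted p = 0.029) was not called without DMSO replicate 1, without DMSO replicate 3 or without JQ1 replicate 2. RORA-AS1 rose by 1.31 and RORA, an orphan nuclear receptor gene, had a log2 change of -0.51 whose call was lost with unstranded counts, without DMSO replicate 2 and without JQ1 replicate 1. MCPH1-AS1 rose by 1.31 and MCPH1, the gene of microcephalin, went from 109, 99.0 and 88.7 CPM to 47.4, 51.0 and 41.0 CPM (log2 change -1.09 ± 0.11, edgeR adjusted p = 6.9e-05). Unstranded counts left MCPH1-AS1 uncalled (0.55, adjusted p = 0.094).

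ADARB2-AS1 (chr10:1526637-1556984, plus strand) lies within ADARB2, a gene of the RNA-editing deaminase family, without sharing exon sequence. It was at 8.96, 10.1 and 6.63 CPM in DMSO and at 15.4, 26.2 and 21.0 CPM in JQ1 (log2 change 1.28 ± 0.21, edgeR adjusted p = 0.0014). ADARB2 had 16, 39 and 33 reads in DMSO replicates 1, 2 and 3 and 2, 2 and 0 reads in JQ1, a fitted log2 change of -4.11 whose size depends on the prior count. Pairs with a higher AS1 RNA and a lower coding gene also included those of PSMA3, ZNF710, TMEM44 and RBM26. ZNF710-AS1 went from 12.2, 10.9 and 12.7 CPM to 22.7, 18.8 and 18.9 CPM while ZNF710, a zinc finger gene, went from 27.3, 28.5 and 31.4 CPM to 15.8, 16.7 and 16.9 CPM, with no overlap in either gene. The 6 pairs with a lower AS1 RNA and a higher coding gene were those of TSPOAP1, PITRM1, SLC25A25, TRIM52, UBA6 and NUTM2A. NUTM2A had 2, 4 and 1 reads in DMSO and 19, 15 and 9 in JQ1. PITRM1-AS1 had 122 reads on its own strand, 3897 on the other and 449 in the unstranded counts. Its log2 change was -1.18 by strand and an uncalled 0.52 with unstranded counts.

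**Figure D4:**
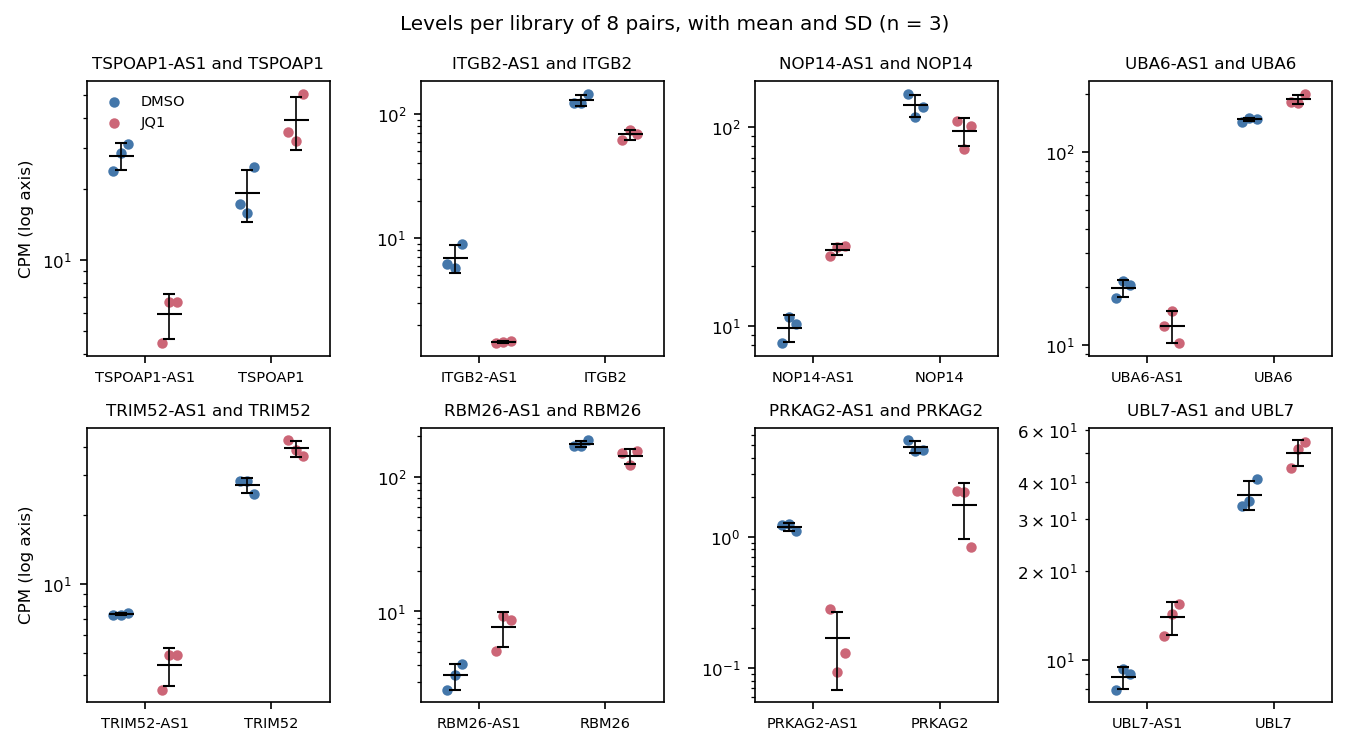
CPM per library (y axis, log scale) of 8 AS1 genes and their coding genes, chosen after their values were seen, with the mean and SD of 3 libraries. TSPOAP1-AS1, UBA6-AS1 and TRIM52-AS1 are lower in JQ1 with the coding gene higher, NOP14-AS1 and RBM26-AS1 higher with the coding gene lower, UBL7-AS1 higher and ITGB2-AS1 and PRKAG2-AS1 lower together with it.

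In 14 head-to-head pairs both genes were called. Windows are shown for 6 of them, in which the RefSeq starts of both genes fall within the 300-base promoter window of the AS1 gene. The pair of OTUD6B-AS1 and OTUD6B, which fell together, was left out although its annotated starts lie close together. The 6 are thus not a count over all 14 pairs, and no pair that fell together is shown. The windows are shown because both RNAs leave from the same stretch of DNA in opposite directions, yet their levels moved together in some pairs and apart in others. Each runs from 250 bases before to 50 after the AS1 start on the plus strand of GRCh38.p14 (RefSeq), and capitals mark the bases from the start of the coding gene to that of the AS1 gene. UBA6-AS1 and UBL7-AS1 are listed there as UBA6-DT and UBL7-DT, DT meaning divergent transcript.
TRIM52-AS1, chr5:181260962-181261261: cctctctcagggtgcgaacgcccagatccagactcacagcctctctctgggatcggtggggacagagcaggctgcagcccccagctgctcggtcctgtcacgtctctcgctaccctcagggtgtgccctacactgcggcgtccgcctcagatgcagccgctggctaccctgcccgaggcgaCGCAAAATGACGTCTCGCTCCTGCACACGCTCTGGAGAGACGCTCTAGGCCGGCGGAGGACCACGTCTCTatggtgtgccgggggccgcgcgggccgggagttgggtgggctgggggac
UBA6-AS1, chr4:67701028-67701327: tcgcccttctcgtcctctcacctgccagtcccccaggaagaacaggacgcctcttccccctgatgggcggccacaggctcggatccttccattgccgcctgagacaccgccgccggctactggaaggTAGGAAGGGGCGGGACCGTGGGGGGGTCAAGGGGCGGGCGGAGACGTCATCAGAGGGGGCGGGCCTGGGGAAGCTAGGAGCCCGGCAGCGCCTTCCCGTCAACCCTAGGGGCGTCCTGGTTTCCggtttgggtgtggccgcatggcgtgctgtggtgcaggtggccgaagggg
RBM26-AS1, chr13:79406059-79406358: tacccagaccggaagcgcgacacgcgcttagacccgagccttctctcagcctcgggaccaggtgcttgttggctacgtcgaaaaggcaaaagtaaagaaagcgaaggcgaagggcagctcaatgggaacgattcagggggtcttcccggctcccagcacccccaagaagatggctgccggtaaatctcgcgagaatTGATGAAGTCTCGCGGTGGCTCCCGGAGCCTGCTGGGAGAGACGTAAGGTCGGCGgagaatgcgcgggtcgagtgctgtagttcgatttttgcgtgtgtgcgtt
UBL7-AS1, chr15:74461015-74461314: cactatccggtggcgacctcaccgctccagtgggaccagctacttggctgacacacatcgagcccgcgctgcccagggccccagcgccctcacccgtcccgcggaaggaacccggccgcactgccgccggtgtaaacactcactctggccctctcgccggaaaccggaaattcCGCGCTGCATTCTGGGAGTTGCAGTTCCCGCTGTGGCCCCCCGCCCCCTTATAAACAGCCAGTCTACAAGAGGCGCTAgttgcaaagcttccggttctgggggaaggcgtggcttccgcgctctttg
ZBED5-AS1, chr11:10857967-10858266: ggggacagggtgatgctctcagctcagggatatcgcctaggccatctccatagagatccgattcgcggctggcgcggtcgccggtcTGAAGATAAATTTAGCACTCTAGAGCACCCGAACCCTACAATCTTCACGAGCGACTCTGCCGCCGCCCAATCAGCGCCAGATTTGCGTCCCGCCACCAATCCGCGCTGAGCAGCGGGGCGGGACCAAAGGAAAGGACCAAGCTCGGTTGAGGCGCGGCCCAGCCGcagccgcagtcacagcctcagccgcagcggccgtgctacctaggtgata
PPP1R12A-AS1, chr12:79935031-79935330: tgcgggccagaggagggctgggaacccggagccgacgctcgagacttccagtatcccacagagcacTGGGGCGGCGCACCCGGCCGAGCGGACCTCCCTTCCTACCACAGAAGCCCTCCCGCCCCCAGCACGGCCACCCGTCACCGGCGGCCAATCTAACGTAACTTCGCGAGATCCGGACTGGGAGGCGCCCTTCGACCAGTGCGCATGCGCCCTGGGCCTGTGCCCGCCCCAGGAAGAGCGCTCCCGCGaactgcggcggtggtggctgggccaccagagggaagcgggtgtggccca

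In the first 3 of these windows the RNAs moved apart. TRIM52-AS1, whose start lies 69 bases from that of the ubiquitin ligase gene TRIM52, was at 7.34, 7.34 and 7.50 CPM in DMSO and at 3.44, 4.88 and 4.90 CPM in JQ1 (log2 change -0.76 ± 0.18, edgeR adjusted p = 0.0083). TRIM52 went from 28.2, 28.3 and 24.7 CPM to 42.5, 38.8 and 36.4 CPM (log2 change 0.54 ± 0.10, edgeR adjusted p = 0.0026). UBA6-AS1, 123 bases from the start of the ubiquitin-activating enzyme gene UBA6, had 17.5, 21.3 and 20.4 CPM in DMSO and 12.6, 15 and 10.2 CPM in JQ1, a change of -0.65 ± 0.15 on the log2 scale (edgeR adjusted p = 0.008). UBA6 itself was at 144, 151 and 149 CPM in DMSO and at 183, 181 and 201 CPM in JQ1, a change of 0.35 ± 0.09 on the log2 scale (edgeR adjusted p = 0.0095). In both pairs the groups did not overlap for either gene. RBM26-AS1, 54 bases from the start of the RNA-binding protein gene RBM26, went from 2.61, 3.38 and 4.05 CPM to 5.09, 9.25 and 8.57 CPM (log2 change 1.17 ± 0.25, edgeR adjusted p = 0.0051). The change of RBM26, -0.30 ± 0.11 with an adjusted p of 0.048, was lost in 9 alternatives, 5 of them leaving out 1 library (each DMSO replicate, and JQ1 replicates 1 and 2).

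The last 3 windows belong to pairs that rose together. UBL7-AS1 went from 7.93, 9.31 and 8.98 CPM to 12, 14.3 and 15.5 CPM (log2 change 0.67 ± 0.14, edgeR adjusted p = 0.0049). UBL7, a ubiquitin-like protein gene whose start is 77 bases away, changed by 0.47 ± 0.11 on the log2 scale (edgeR adjusted p = 0.0087). ZBED5-AS1 and PPP1R12A-AS1 rose by 0.91 and 1.09 on the log2 scale, and their coding genes by 0.26 and 0.28. The call of ZBED5 was lost without any 1 library other than DMSO replicate 1, and that of PPP1R12A without DMSO replicate 1 or 3 or JQ1 replicate 1 or 3. ZBED5-AS1 itself was not called without DMSO replicate 3. Over the 224 RefSeq windows of 193 members, 63.84% held the GC box GGGCGG on either strand, beside 44.95% of all windows, and 17.86% held the ETS site CCGGAAG, beside 10.26%. The E-box CACGTG, which MYC and related factors bind, was in 7.59% of the AS1 windows and 7.26% of all windows. Members that rose had the ETS site in 24.39% of 41 windows, members that fell in 10.81% of 37 and uncalled members in 16.67% of 144. The CCAAT box was in 31.71%, 16.22% and 34.03% of these windows. These shares rest on few windows for the called members and are a description with no test. Median GC content was 63.67% in AS1 windows and 58.67% in all.

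Because many of these RNAs lie opposite a stronger gene, the reads on both strands were set side by side. In 1767 coding genes with no gene on the other strand within 5 kb, 0.216% to 0.247% of reads fell on the wrong strand, depending on the library. Opposite-strand reads equalled or outnumbered own-strand reads in 68 members, of which 12 rose and 7 fell. These are 17.6% and 10.3%, beside 15.9% and 20.6% of all genes. In 6 members the measured rate would account for at least 10% of own-strand reads, and 2 of these were called, SPAG5-AS1 and VIM-AS1. VIM-AS1, opposite the gene of the filament protein vimentin, had 386 own-strand reads beside 27028 on the other strand. It went from 3.74, 4.08 and 3.33 CPM to 2.22, 1.88 and 1.48 CPM (log2 change -0.98 ± 0.22, edgeR adjusted p = 0.0064) while VIM had a log2 change of 0.05. At the measured rate 16.6% of the VIM-AS1 reads would come from VIM, and the part of such reads in the change was not tested. With unstranded counts, in which 13.0% of all genes were called higher and 18.1% lower, 74 of the 87 called members were called in the same direction, 13 were not called and none was called in the opposite direction. Of the called members SP2-AS1 and PITRM1-AS1 changed sign. Unstranded counts leave out reads over exons shared with the other strand, so they are not the sum of both strands. SP2-AS1, with 72 own-strand and 333 opposite-strand reads, had a log2 change of -2.35 ± 0.42 by strand (edgeR adjusted p = 0.0017) and 0.04 without (adjusted p = 0.91).

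**Figure D5:**
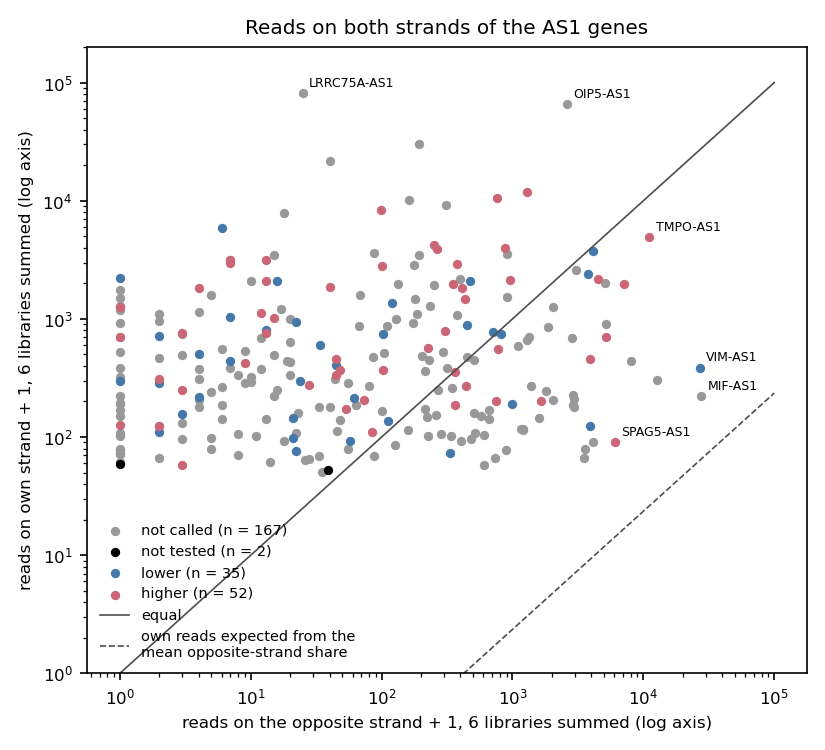
Reads on the opposite strand (x axis) and on the own strand (y axis) of 256 AS1 genes, summed over 6 libraries plus 1, on log axes, coloured by call, with a line of equality and a dashed line for the own-strand reads that the mean wrong-strand share would give. SPAG5-AS1, VIM-AS1 and MIF-AS1 lie nearest to the dashed line, and 188 members have more own-strand than opposite-strand reads.

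Members near the read minimum were less certain. In all, 8 members reached 10 reads in 3 libraries of 1 group only: SPAG5-AS1 and IDH1-AS1 in JQ1, and FOXP4-AS1, PRKAG2-AS1, SP2-AS1, LCMT1-AS1, PRKCZ-AS1 and SLC9A9-AS1 in DMSO. Their direction follows from that inclusion. IDH1-AS1 changed by 1.97 ± 0.51 on the log2 scale (edgeR adjusted p = 0.013), and LCMT1-AS1 and PRKCZ-AS1, at -1.23 and -0.92, were not called (adjusted p = 0.067 and 0.069), though LCMT1-AS1 was with the block (edgeR adjusted p = 0.012). TAF1A-AS1 and SLC9A9-AS1, whose third-highest count was 10, were counted but not tested, and 5 genes with a third-highest count of 9, MATN1-AS1, SPON1-AS1, TNFRSF14-AS1, UXT-AS1 and ZNF350-AS1, fell just outside. Among the 210 members with 10 reads in all 6 libraries, 48 rose and 25 fell. These are 22.9% and 11.9%, beside 15.9% and 20.6% of all genes.

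A further 39 members stood beside a coding gene that was too low to test, and 14 of these were called, 9 higher and 5 lower. Over all 254 members tested 20.47% were called higher and 13.78% lower, and over all genes 15.9% and 20.6%. PXN-AS1, which lies opposite the gene of the focal adhesion protein paxillin, went from 9.95, 12.3 and 10.8 CPM to 3.76, 4.13 and 3.61 CPM (log2 change -1.52 ± 0.16, edgeR adjusted p = 7.9e-05), while PXN ran from 0.0469 to 0.275 CPM. This member was chosen after its values were seen.

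Genes whose products degrade or terminate antisense RNA in the nucleus moved in both directions. Of 31 tested, 3 rose and 7 fell, with a median log2 change of -0.07. That is 9.68% higher and 22.6% lower, beside 15.9% and 20.6% of all genes, so the share that fell was near that of all genes. EXOSC5, a subunit of the RNA exosome core, went from 34.4 ± 4.16 to 15.2 ± 3.19 CPM (SD, n = 3; log2 change -1.19, edgeR adjusted p = 0.00033). The exosome genes EXOSC7, EXOSC4 and EXOSC10, the exosome cofactor genes C1D and MTREX, and ZC3H4, which restricts noncoding transcription, also fell. Those that rose were ZFC3H1, EXOSC6 and the cap-binding gene NCBP2. Whether these changes bear on the AS1 levels was not tested.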

How the data were processed

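Total RNA of ALL-SIL was sequenced as 6 stranded libraries, per the labels' protocols, and the submitters' processing notes name the build GRCh38. Neither aligner nor annotation release is given in the sources used here. The deposited files hold raw counts of reads per gene, unstranded and for each strand, in the layout of STAR's gene counts, per the files' own columns. Such counts omit multi-mapping and ambiguous reads, so RNAs overlapping on the same strand are undercounted. In the unstranded counts, reads over exons shared with a gene on the other strand are ambiguous too. For members with exon overlap those counts thus rest on the exon sequence that is not shared.

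Reverse-strand counts were used, which were 20.9 to 22.6 times the forward-strand counts. Names, biotypes and positions came from GENCODE 29. Of 256 members 246 matched with their version, and positions are printed only for those. The members, the lists and the tests were chosen with earlier results of these data known. Genes were filtered with filterByExpr (minimum count 10, minimum total 15), scaled by TMM factors (0.965 to 1.06), and tested with edgeR 4.0.16 (glmQLFit robust, glmQLFTest, group only) in R 4.3.3. Adjusted p-values are Benjamini-Hochberg over 13975 genes, with a threshold of 0.05, and a standard error is the log2 change divided by the root of the F statistic. Log2 ratios of a pair used a prior count of 0.5 read. Alternatives were limma 3.58.1 (voom), DESeq2 1.42.0, other scaling and filters, unstranded counts, a replicate block and leaving out each library.

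Same-numbered libraries of both groups deviated together (correlations 0.326, 0.433 and 0.371), so the replicate numbers from the titles were taken to pair them. Chi-square comparisons found every pair of libraries within a group to differ beyond sampling noise. The test was checked on simulated data for JQ1 against DMSO over 13745 genes, where it recovered 68 of 95 genes changed 2-fold and 41 of 96 changed 1.5-fold. Of its 122 calls there, 13 were false. Reads carry no molecular identifiers.

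Members were named by rule: up to 10 per direction by size of change reaching 1 CPM in their higher group, the 5 highest by CPM and by CPM per kilobase, a list of 14 with reported roles, and those reaching the minimum in 3 libraries of 1 group only. Members named for another reason are marked as chosen after their values were seen, and those of the paragraphs on promoter windows and on strand were also chosen so. A few members and their coding genes are counted but not reported by name here.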

Additional observations from a re-analysis of the deposited data

How the results depend on the processing

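All 87 calls were kept with the replicate block, which pairs same-numbered libraries, and with relative log expression factors. DESeq2 kept 80, limma-voom 85, upper-quartile factors 86, library size alone 80, no filter on low counts 81 and unstranded counts 74, and a minimum of 1 CPM in 3 libraries kept 78 with 9 not tested. Leaving out 1 library kept 68 to 74, and 61 were called without any single library. With the block 85 members and 71 of their coding genes rose, beside 27.3% of all genes. Over members with a mean of 50 reads 20 fell, and 26 of their coding genes rose and 24 fell. Over members with more own-strand reads 25 coding genes rose. These subsets hold fewer genes.

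Without 1 library 43 to 54 members rose and 26 to 34 fell, and 28 to 35 coding genes rose and 38 to 42 fell. Uncalled log2 changes near 0 turned sign. FGD5-AS1 ran from -0.028 to 0.217 without 1 library, SATB1-AS1 from -0.00693 to 0.198, CD27-AS1 from -0.242 to 0.39 and OIP5-AS1 from -0.0312 to 0.0535. CD27-AS1 gave -0.0618 with library size alone and -0.00644 with no filter. OIP5-AS1 gave -0.0581 with library size alone, -0.0142 with no filter and -0.0092 with unstranded counts. SP2-AS1, a called member, gave 0.0429 with unstranded counts. The ratio of UMODL1-AS1 to UMODL1 ran from -0.22 to 1.43 without 1 library, the lowest without JQ1 replicate 1. The cause was not tested. Depth limits members of few reads: at 15925885 to 25293884 gene counts, 10 reads lie below 1 CPM.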

Other observations

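Other long noncoding RNA genes under the same read minimum can be set beside the AS1 genes by name. Of 131 tested genes named LINC, for RNAs between genes, 14 rose and 28 fell, with a median log2 change of -0.07. These are 10.7% and 21.4%, beside 15.9% and 20.6% of all genes, so the share that fell was near that of all genes. Among 60 named as divergent, intronic or overlapping transcripts (DT, IT or OT), 12 rose and 2 fell (20.0% and 3.33%), with a median of 0.20. In 17 genes with other antisense names 3 fell (17.6%) in edgeR's test and the others were not called, with a median of -0.17. With the replicate block 7 of the 17 fell, beside 29.6% of all genes. Long noncoding genes of all other names numbered 1357, of which 164 rose and 136 fell (12.1% and 10.02%), with a median of 0.13. No test was made between these classes. Of the AS1 members 26 have another current symbol, and 20 of those end in -DT.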
